A study of Ixodes ricinus with 9 samples.

Results

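HPB47_024016 was the single gene with an insulin domain that had reads in the midguts of Ixodes ricinus females, out of 28510 genes counted. It was taken as the gene of that name with the Pfam domain of the insulin, insulin-like growth factor (IGF) and relaxin family, so it is 1 member of 1, and it had been chosen by its lower counts in both other groups than in the GFP control group. Females received double-stranded RNA (dsRNA) against antigen p23, against a metalloprotease or against GFP, a jellyfish protein that ticks lack, which served as the control. They were fed artificially on bovine blood, and midguts were taken on day 7 of feeding. Each group had 3 libraries, and each library came from a pool of 3 ticks. All 3 groups had the same kind of injection, blood meal and sampling day, but each group fed in feeding units of its own. The paper also describes few and uneven detachments of viable ticks in the control, and names handling errors as a possible reason. The part of such feeding differences in the level of HPB47_024016 was not tested. The group names give the dsRNA injected. The paper describes antigen p23 as silenced in the midgut, but the metalloprotease as fully silenced only in salivary glands and not in the midgut. The sources used here do not pair either target with a gene of the table, and the targets' own levels are not analysed here.

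Insulin-like peptides are small secreted hormones. They are cut from longer precursors, and they act through a receptor tyrosine kinase at the cell surface. In insects the receptor works through insulin receptor substrate proteins, phosphatidylinositol 3-kinase (PI3K) and the kinase AKT. AKT keeps the transcription factor FOXO out of the nucleus and raises the activity of TOR kinase, so the pathway joins feeding to growth, sugar storage and egg yolk production. Insulin-like peptides of insects are made mainly by neurosecretory cells of the brain, and some also by gut, fat body and ovary.

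The genome used for counting is that of the related tick I. persulcatus (assembly BIME_Iper_1.3). There HPB47_024016 lies on the minus strand of scaffold JABSTQ010009452.1, from position 95810 to 183616, a span of 87807 bases with a coding length of 1119 bases. The table gives it the insulin domain and no name from Swiss-Prot, so which insect or vertebrate peptide it is closest to is not known here. No annotated gene overlaps it. The gene nearest on one side, HPB47_024017, starts 3617 bases away, and HPB47_024018 lies 147640 bases away on that side. Both had 0 counts in all 9 libraries. On the other side lie a match to subunit g of the mitochondrial ATP synthase (HPB47_024015), 18149 bases away, and an unnamed gene (HPB47_024014), 31819 bases away.

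HPB47_024016, chosen by its lower counts, had fewer reads in each of the 6 antigen p23 and metalloprotease libraries than in any control library. The share of all genes with such a gap in raw counts is not given here. Its counts were 15, 38 and 122 in antigen p23 replicates 1, 2 and 3, they were 68, 114 and 193 in the metalloprotease replicates, and they were 209, 203 and 291 in the GFP control replicates. The libraries differed in depth, with totals between 3303358 and 9430607 counts, and metalloprotease replicate 3 was the deepest. Counts were therefore set on the CPM scale (a gene's counts relative to the total of its library) after TMM scaling, edgeR's correction for libraries in which a few abundant genes take up many reads. On that scale antigen p23 replicates 1, 2 and 3 held 5.21, 11.3 and 38.7 CPM, metalloprotease replicates held 15.2, 33.5 and 20.9 CPM, and GFP control replicates held 49.4, 35.0 and 91.6 CPM. The group means were 18.4 ± 17.8 CPM for antigen p23, 23.2 ± 9.40 CPM for metalloprotease and 58.7 ± 29.4 CPM for the GFP control (SD, n = 3 each). Antigen p23 replicates 1 and 2 stood far below every control library, whereas antigen p23 replicate 3 lay just above GFP control replicate 2, so these groups overlapped in CPM. The metalloprotease libraries all lay below the control libraries, by a narrow margin between 33.5 and 35.0 CPM, as they did in 2.95% of the 6786 genes tested in that comparison. In bulk midgut, fewer cells that make the peptide and less RNA in each such cell cannot be told apart.

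Counting error left the extremes apart but not the margins between groups. For the lowest library, antigen p23 replicate 1, the exact 95% Poisson interval ran from 2.91 to 8.59 CPM, and for the highest, GFP control replicate 3, from 81.4 to 103 CPM. At the margins the intervals overlapped, with 32.1 to 46.2 CPM for antigen p23 replicate 3, 27.7 to 40.3 CPM for metalloprotease replicate 2 and 30.4 to 40.2 CPM for GFP control replicate 2. These intervals cover counting error only, since reads copied by PCR are not independent molecules. The highest library exceeded the lowest 7.43-fold within the antigen p23 group, 2.21-fold within the metalloprotease group and 2.62-fold within the GFP control group.

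**Figure D1:**
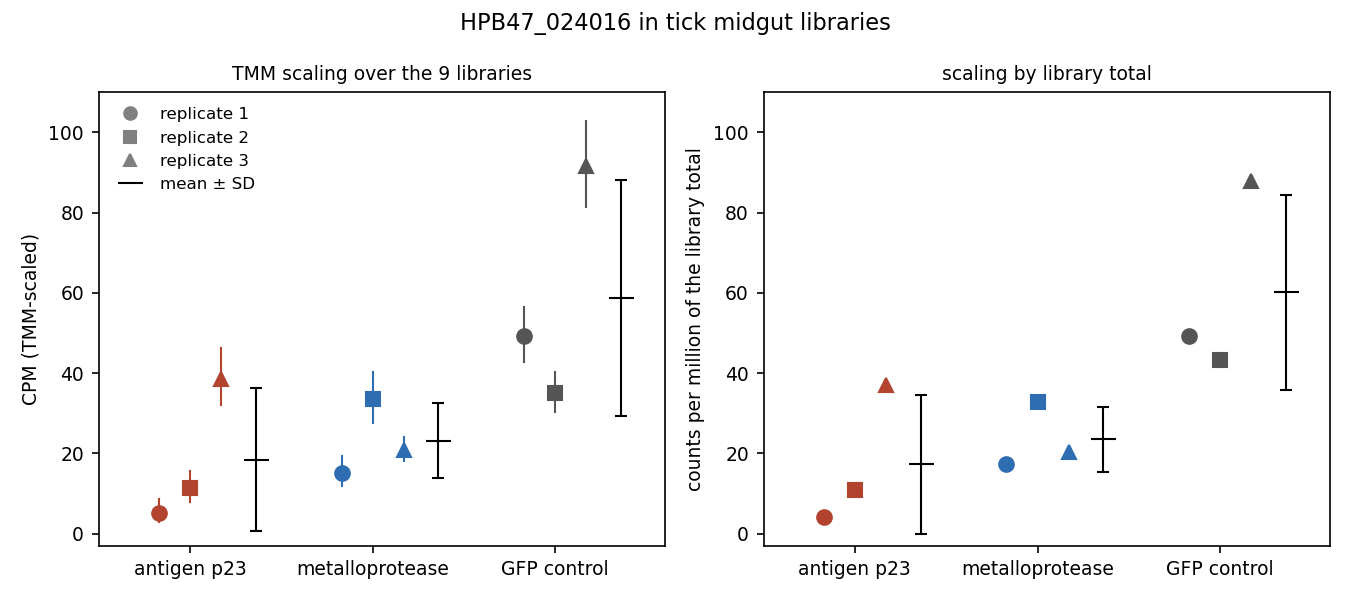
Level of HPB47_024016 in each of the 9 libraries, in CPM after TMM scaling (left, with exact 95% Poisson intervals as thin lines) and in CPM of the plain library total (right); black bars are the mean ± SD of 3 libraries. Antigen p23 replicate 3 overlaps GFP control replicate 2 on the left (38.7 and 35.0 CPM) and not on the right (36.9 and 43.4).

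The scaling decided whether antigen p23 and control overlapped. In CPM of the plain library total, without TMM, the gene stood at 4.12, 10.9 and 36.9 in antigen p23 replicates 1, 2 and 3, at 17.5, 32.7 and 20.5 in metalloprotease replicates and at 49.1, 43.4 and 88.0 in GFP control replicates. On this scale the antigen p23 and metalloprotease groups both lay wholly below the control. Such separation was not rare among genes. Every antigen p23 library lay below every control library in 11% of the 6381 genes tested by library totals and in 6.24% in TMM-scaled CPM. By totals, every metalloprotease library lay below every control library in 3.73% of genes.

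Between groups, the fitted log2 fold change of HPB47_024016 was -1.67 (SE 0.71) for antigen p23 against the GFP control and -1.34 (SE 0.46) for metalloprotease against the GFP control. No p-value is given for either, because the gene was selected on these same differences, and both comparisons use the same 3 control libraries. Individual pools weighed heavily in the antigen p23 value. It was -2.82 without antigen p23 replicate 3, the pool close to the control level, and -0.60 when antigen p23 replicates 1 and 2 were both left out. In the metalloprotease comparison, leaving out GFP control replicate 3, the pool with the highest level, gave -0.86, and the range over the 6 libraries left out in turn was -1.70 to -0.86.

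The same antigen p23 pools stood apart in the whole library. Replicates 1 and 2 held reads for 7291 and 6294 genes, against 9136 to 10988 in the other 7 libraries, and only 1625 and 661 genes had between 1 and 9 counts, against 2581 to 3280 in the others. The part of this difference in the low level of HPB47_024016 was not tested. Ranked per coding length among the genes with a read in each library, HPB47_024016 stood at percentiles 31.4, 35.5 and 73.8 in antigen p23 replicates 1, 2 and 3, at 61.9, 73.1 and 68.0 in metalloprotease replicates and at 78.6, 75.9 and 86.0 in GFP control replicates.

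The comparison that the selection did not use, antigen p23 against metalloprotease, was tested. The log2 fold change was -0.34 (SE 0.73), with a 95% interval from -1.98 to 1.31. It did not pass the quasi-likelihood test of edgeR, fitted across 6383 genes (adjusted p = 0.998). In CPM the antigen p23 library was the lower one in 6 of the 9 pairs of libraries. The direction was not fixed by these pools. The value was 0.097 without antigen p23 replicate 1, 0.024 without metalloprotease replicate 2 and 0.73 without antigen p23 replicates 1 and 2, and without antigen p23 replicate 3 it was -1.48.

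The other 2 genes with the insulin domain had no reads. HPB47_001129 (scaffold JABSTQ010010149.1, 101823 to 104764, plus strand, coding length 450 bases) and HPB47_001130 (104912 to 111578, plus strand, coding length 522 bases) are direct neighbours, and each had 0 counts in all 9 libraries. A count of 0 over the 9 libraries allows at most 0.0755 CPM. With 3 counts set as the floor over the 3 control libraries, HPB47_024016 was at least 94.2-fold higher per coding length in the GFP control group than HPB47_001129, and at least 109-fold higher than HPB47_001130. A further gene, HPB47_020752, carries a Swiss-Prot match to insulin-like peptide 7 of Drosophila melanogaster, a relaxin-like member of the family there, without a Pfam insulin domain, and was named after its values were seen. It had 1 count in antigen p23 replicate 2, 0 counts in the metalloprotease group, and 5 and 2 counts in GFP control replicates 2 and 3, too few for a comparison. A read of I. ricinus that differs from the I. persulcatus sequence may not align, so a 0 here is a 0 in these counts.

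Per kilobase of coding length HPB47_024016 averaged 16.4 ± 15.9 CPM in antigen p23, 20.7 ± 8.40 CPM in metalloprotease and 52.4 ± 26.3 CPM in GFP control libraries (SD, n = 3 each). It was set beside 36 genes with the domains of other secreted ligands, such as Wnt proteins and the transforming growth factor family. In the antigen p23 group 6 of these 36 had a higher mean per kilobase, in the metalloprotease group 5 did, and in the GFP control group none did. This shift in rank repeats the difference by which HPB47_024016 was chosen. The nearest in the control were a match to Wnt-4 (HPB47_023177), a signal of tissue patterning, with 44.2 CPM per kilobase, and a match to bone morphogenetic protein 2 (HPB47_000094), a growth factor, with 42.2. Both lie within the SD of HPB47_024016. The median of the 30 such genes with a read in the control was 3.88 CPM per kilobase.

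Receptors and their substrates came next along the pathway, and none of their differences passed after adjustment. The match to the human insulin receptor (HPB47_023990) has the receptor L domains, the furin-like region and the tyrosine kinase domain that make up an insulin receptor. It held 9.37, 6.83 and 9.82 CPM in antigen p23 replicates 1, 2 and 3, 5.58, 8.82 and 9.62 CPM in metalloprotease replicates, and 12.8, 11.6 and 13.2 CPM in GFP control replicates. With 23 to 89 counts a library, the log2 fold change was -0.53 (SE 0.57, unadjusted p = 0.379) for antigen p23 and -0.64 (SE 0.36, unadjusted p = 0.120) for metalloprotease, and neither passed the edgeR test. All 6 of these libraries were below every control library, as they were for 0.857% of the 6304 genes tested in both comparisons, which share the 3 control libraries.

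The match to insulin receptor substrate 1 (HPB47_003559), the docking protein on which an activated receptor gathers PI3K, had 2, 0 and 66 counts in antigen p23 replicates 1, 2 and 3, 43, 43 and 116 counts in metalloprotease replicates, and 86, 84 and 70 counts in GFP control replicates. In CPM this was 0.694, 0 and 20.9 for antigen p23, 9.59, 12.6 and 12.5 for metalloprotease and 20.3, 14.5 and 22.0 for the GFP control. The 2 antigen p23 pools with few detected genes were almost without reads and the third was at control level. The metalloprotease libraries were all below the control libraries, as in 2.95% of genes tested. The log2 fold change was -0.70 (SE 0.33, unadjusted p = 0.069 in edgeR).

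A pair of genes match the insulin-like peptide receptor of the lancelet Branchiostoma lanceolatum. Both carry a tyrosine kinase domain behind a ligand-binding region of the natriuretic peptide receptor type, not the receptor L domains of an insulin receptor, and they are named here by the match only. HPB47_008153 is a guanylate cyclase by the name used in the paper, which lists it as lower after metalloprotease knockdown. The paper reports the same direction by quantitative PCR in midgut and salivary glands. HPB47_008153 had 1, 0 and 40 counts in antigen p23 replicates, 14, 10 and 6 counts in metalloprotease replicates and 40, 41 and 37 counts in GFP control replicates. The metalloprotease libraries all lay below the control, as in 2.95% of genes tested. The difference was -2.11 on the log2 scale (SE 0.64, edgeR unadjusted p = 0.011, adjusted p = 1.00). The antigen p23 value was -1.11 (SE 1.41). HPB47_000824 had 5, 23 and 55 counts in antigen p23, 49, 52 and 112 in metalloprotease and 98, 61 and 39 in GFP control replicates, and these groups overlapped.

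The remaining genes of this role are adaptors and docking proteins. The match to docking protein 1 (HPB47_022001), a relative of the receptor substrates, had 0, 0 and 4 counts in antigen p23 replicates, 36, 7 and 315 counts in metalloprotease replicates and 51, 52 and 10 counts in GFP control replicates. Its log2 fold change was -4.16 for antigen p23 against the GFP control (SE 1.48, edgeR unadjusted p = 0.020, adjusted p = 0.964). The match to growth factor receptor-bound protein 14 (HPB47_009715), which in mammals binds the insulin receptor and dampens it, had 0, 0 and 26 counts in antigen p23 replicates, 58, 27 and 181 in metalloprotease replicates and 21, 45 and 36 in GFP control replicates. The match to SH2B adapter protein 2 (HPB47_025332), which in mammals binds the active receptor, was steadier, with means of 34.8 ± 9.03 CPM in antigen p23, 50.3 ± 4.48 CPM in metalloprotease and 43.1 ± 8.49 CPM in the GFP control (SD, n = 3 each). All 7 receptor and substrate genes were negative in antigen p23 against the GFP control, with a median of -1.11, where the median over all genes tested was -0.10. In metalloprotease against the GFP control 4 of 7 were negative, with a median of -0.26, against -0.0048 over all genes. In antigen p23 against metalloprotease 4 of the 6 tested were negative, with a median of -0.54. These medians include the pair with the natriuretic-type region. Without that pair, 5 genes were left, with medians of -1.40 in antigen p23 and 0.22 in metalloprotease, both against the GFP control. Of the 7, antigen p23 replicates 1 and 2 had 0 to 2 counts for 4, and whether the list's median goes with the low detection of those pools was not tested.

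**Figure D2:**
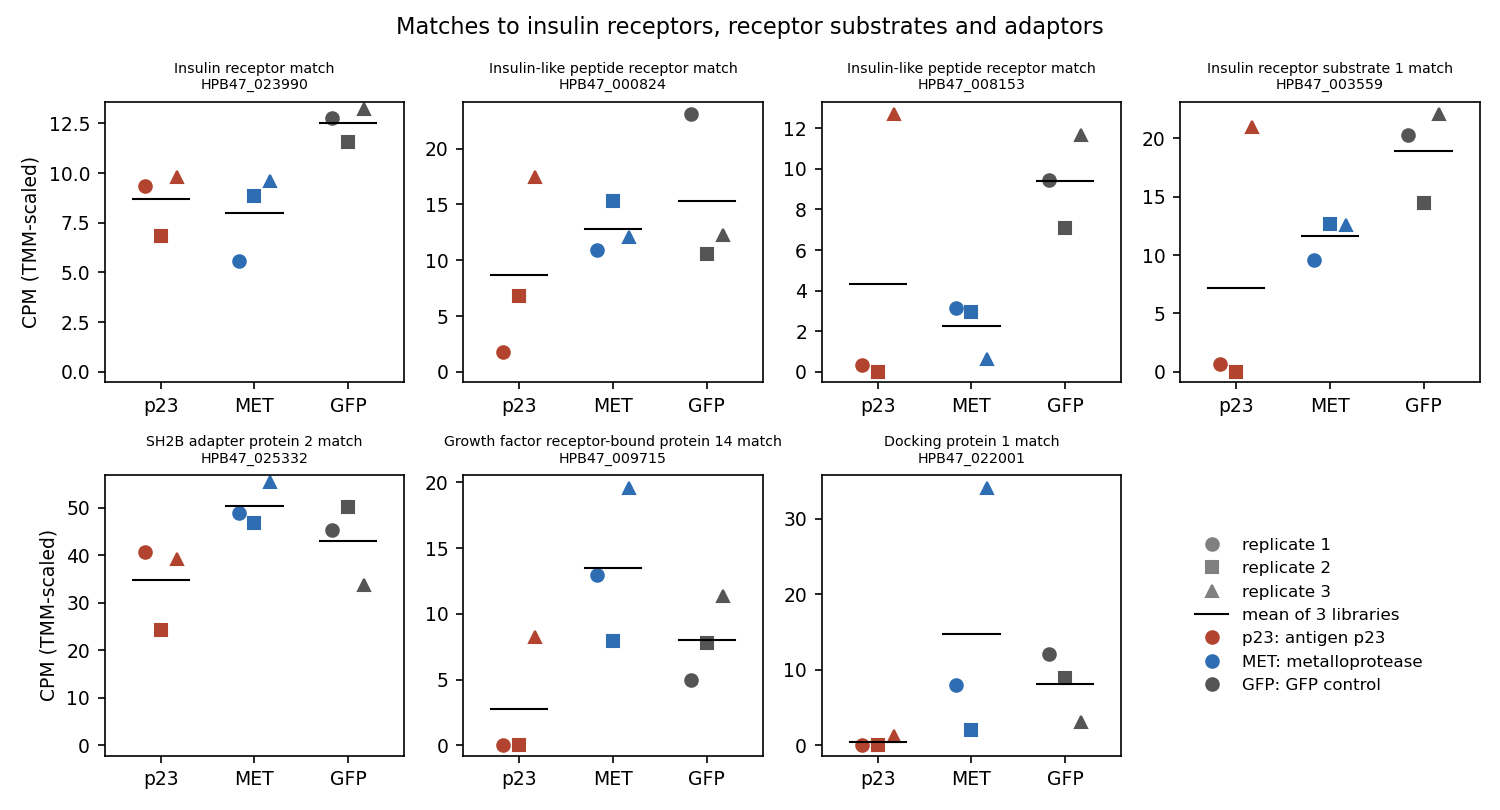
Levels of the 7 genes matching receptors, substrates and adaptors in CPM after TMM scaling, by group and replicate, with the mean of 3 libraries as a black line. The insulin receptor match is below all control libraries in the other 6 libraries, as were 0.857% of genes, and did not pass the test in either comparison (unadjusted p = 0.379 and 0.120), and the insulin receptor substrate 1 match is near 0 only in antigen p23 replicates 1 and 2.

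Beyond the receptors the pathway genes were spread on both sides of no change. Outside the receptor role, the median log2 fold change by role lay between -0.47 and 0.20 in antigen p23 and between -0.25 and 0.13 in metalloprotease, both against the GFP control. The PI3K and AKT arm had 9 tested genes of 17, with a median of 0.20 in antigen p23 and 0.07 in metalloprotease. Its FOXO match (HPB47_021280), the transcription factor that insulin signalling restrains, held 1404, 926 and 891 CPM in antigen p23 replicates, 953, 834 and 1011 CPM in metalloprotease replicates and 1185, 1380 and 1035 CPM in GFP control replicates. The metalloprotease libraries lay narrowly below the control. Such separation, at any margin, held for 2.95% of genes tested, and the log2 fold change here was -0.36 (SE 0.25). The match to the regulatory subunit alpha of PI3K (HPB47_000764) gave 0.24 (SE 0.30) in antigen p23 and 0.30 (SE 0.38) in metalloprotease, and that to the catalytic subunit alpha (HPB47_011451) gave -1.17 (SE 0.94) and -0.09 (SE 0.50), and none passed the test.

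In the TOR and AMPK arm, where AMP-activated kinase (AMPK) senses low energy, 14 genes of 20 were tested in antigen p23 and 16 in metalloprotease, with medians of -0.05 and 0.13. The match to raptor (HPB47_003404), the subunit that brings TOR its substrates, held 14.6, 11.3 and 18.1 CPM in antigen p23 replicates, 20.1, 25.3 and 17.7 CPM in metalloprotease replicates and 28.6, 36.9 and 23.6 CPM in GFP control replicates. All antigen p23 libraries lay below the control libraries, as in 6.24% of genes tested. The log2 fold change was -1.03 (SE 0.46, edgeR unadjusted p = 0.052). Of the genes matching the gamma-2 AMPK subunit, the scarce HPB47_011542, with means of 3.29 CPM in antigen p23 and 11.02 CPM in the GFP control, gave -1.76 (SE 1.21), and the abundant HPB47_023645, with 229 and 204 CPM, gave 0.16 (SE 0.36). The AMPK alpha-2 match (HPB47_007086) gave 1.46 (SE 0.85) in metalloprotease and was not tested in antigen p23 against the GFP control. The match to Ras-related GTP-binding protein A (HPB47_011097) gave 0.91 (SE 0.56) in antigen p23 and 0.42 (SE 0.33) in metalloprotease. In the Ras and MAP kinase arm, which carries growth signals from the same receptor, 9 and 10 of 13 genes were tested, with medians of 0.07 and -0.10. The MAP kinase 1 match (HPB47_005619) gave -0.11 (SE 0.38) in antigen p23 and -0.39 (SE 0.26) in metalloprotease, and the neurofibromin match (HPB47_009457), a brake on Ras, gave -1.55 (SE 0.95) and -0.36 (SE 0.43). HPB47_024817 of the same arm gave -2.57 (SE 1.54) in antigen p23 and -0.75 (SE 0.54) in metalloprotease. Its antigen p23 libraries all lay below the control libraries, as in 6.24% of genes tested.

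Genes that make or remove the peptide were measured as well. Furin-like proteases cut hormone precursors in the secretory path. The match to furin-like protease 1 of D. melanogaster (HPB47_023798) averaged 99.8 ± 48.0 CPM in antigen p23, 70.9 ± 23.1 CPM in metalloprotease and 71.0 ± 23.5 CPM in the GFP control, and that to furin-like protease 2 (HPB47_028375) 142 ± 90.0, 162 ± 85.8 and 205 ± 98.5 CPM (SD, n = 3 each). The 7B2 gene (HPB47_025746), a helper of the convertase used in neuroendocrine cells, had 0, 0 and 16 counts in antigen p23 replicates, 16, 6 and 40 in metalloprotease replicates and 8, 89 and 5 in GFP control replicates, so 1 control pool held most of the control reads. Of 17 processing genes, 4 were tested in antigen p23 and 8 in metalloprotease, with medians of -0.09 and -0.02. The smallest p of this role was that of HPB47_026288 in metalloprotease against the GFP control. Its log2 fold change there was 2.42 (SE 1.05, edgeR unadjusted p = 0.052), and its libraries overlapped the control in CPM. It was not tested in antigen p23 against the GFP control. The paper lists it among the higher genes after metalloprotease knockdown. The insulin-degrading enzyme match (HPB47_007631), a protease that clears insulin, gave 0.01 (SE 0.57) in antigen p23 and -0.04 (SE 0.33) in metalloprotease. A gene with an IGF-binding domain (HPB47_025926) gave 0.13 (SE 0.39) and 0.18 (SE 0.37). Only these 2 of the 4 binding and degradation genes were tested in those comparisons.

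Sugar and yolk genes are the usual readouts of insulin signalling in insects. Of 7 sugar enzymes, the match to the catalytic subunit 1 of glucose-6-phosphatase (HPB47_006720), which releases free glucose, held 5354, 4370 and 2805 CPM in antigen p23 replicates, 1429, 2871 and 2930 CPM in metalloprotease replicates and 1336, 1985 and 2292 CPM in GFP control replicates. Its log2 fold change for antigen p23 against the GFP control was 1.16 (SE 0.34, edgeR unadjusted p = 0.00831, adjusted p = 0.964). The match to glucose-6-phosphatase 3 (HPB47_024573) went the other way, with -0.52 (SE 0.38) in antigen p23 and -0.36 (SE 0.32) in metalloprotease against the GFP control. A pair of genes match phosphoenolpyruvate carboxykinase, an enzyme of glucose synthesis. The abundant one, HPB47_005193, averaged 3477 ± 1249 CPM in antigen p23, 3315 ± 1883 CPM in metalloprotease and 2882 ± 1011 CPM in the GFP control (SD, n = 3 each), with log2 fold changes of 0.27 (SE 0.37) and 0.20 (SE 0.53). The scarce one, HPB47_016997, had 12, 55 and 8 counts in antigen p23, 48, 20 and 28 in metalloprotease and 0, 24 and 4 in GFP control replicates, with log2 fold changes of 2.03 (SE 1.40) and 1.77 (SE 1.05). Glycogen phosphorylase (HPB47_008643) gave -0.62 (SE 0.45) and -0.09 (SE 0.27). The most abundant vitellogenin match (HPB47_012779), a yolk protein gene, averaged 29824 ± 8111 CPM in antigen p23, 36774 ± 24803 CPM in metalloprotease and 41436 ± 22852 CPM in the GFP control (SD, n = 3 each). The yolk list was drawn by the lipoprotein N-terminal domain, which lipid carriers share with vitellogenins. It had medians of -0.47 over 5 tested genes in antigen p23 and -0.25 over 6 in metalloprotease, with none past an unadjusted p of 0.05, and it holds a match to the microsomal triglyceride transfer protein (HPB47_010799, 0.32 in antigen p23) and a match to apolipophorins (HPB47_020504, -0.27). The 3 tested genes with a vitellogenin match had a median of -0.64 in antigen p23, and the 4 tested in metalloprotease one of -0.34.

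Of the 99 other genes in the pathway lists, 83 had a read and 57 were tested in antigen p23 against the GFP control. Before adjustment, 1 passed 0.05 in edgeR as higher (the glucose-6-phosphatase match) and 1 as lower (the docking protein 1 match), where 1.55% of all genes tested were higher and 1.71% lower. Without antigen p23 replicate 3 the count was 11 of 61, in a fit where 11% of all 6835 genes were called in either direction. In metalloprotease against the GFP control none of 65 was higher and 1 was lower (HPB47_008153, the gene without insulin receptor L domains), where 0.737% of all genes were higher and 0.693% lower. In antigen p23 against metalloprotease none of 61 passed in either direction, where 1.05% of all genes were higher and 1.52% lower, and without antigen p23 replicate 3 the count was 8 of 63, in a fit where 8.63% of all genes were called. No gene of any list passed after adjustment over all genes tested, and the same held for all genes, with 0% called in each of the 3 comparisons. Before adjustment, edgeR called 208, 97 and 164 genes in antigen p23 against GFP control, metalloprotease against GFP control and antigen p23 against metalloprotease, and DESeq2 called 438, 182 and 416 unadjusted and 6, 0 and 21 adjusted. The paper's totals against the GFP control are also 438 for antigen p23 and 182 for metalloprotease, but stated at an adjusted p of 0.05 or less. Here DESeq2 reached those counts only before adjustment.

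**Figure D3:**
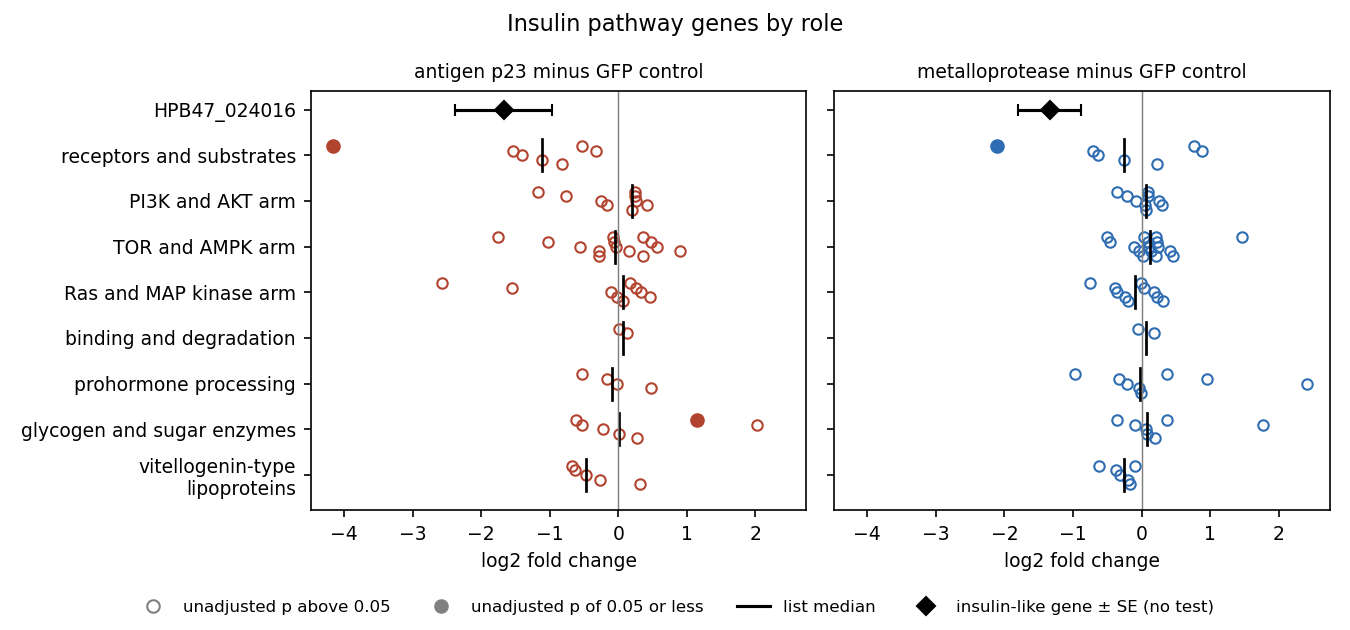
Log2 fold changes (edgeR) of insulin pathway genes by role, for antigen p23 (left) and metalloprotease (right) against the GFP control; circles are genes, filled where the unadjusted p is 0.05 or less, black lines are list medians and the diamond is HPB47_024016 ± SE. The receptor role has its median at -1.11 on the left and -0.26 on the right, and the other roles have medians between -0.47 and 0.20 on the left and between -0.25 and 0.13 on the right.

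The genes whose levels were most like those of HPB47_024016 over the 9 libraries were found by Pearson correlation of log2 CPM over 6923 genes, as a description, since the 9 points share libraries and depth. The closest was a match to the beta-3 subunit of the GABA receptor (HPB47_024787, r = 0.949), a chloride channel of nerve cells in mammals. It held 8.68, 8.61 and 32.0 CPM in antigen p23 replicates, 14.3, 28.2 and 24.0 CPM in metalloprotease replicates and 63.8, 26.0 and 71.4 CPM in GFP control replicates. The order of its libraries was almost that of HPB47_024016, with GFP control replicates 3 and 1 highest and antigen p23 replicates 1 and 2 lowest. HPB47_024016 was chosen by its lower counts outside the control, so the genes most like it largely share that pattern by selection. Next came matches to F-box/LRR-repeat protein 4 (HPB47_026916, r = 0.947), to DENN domain protein 4C (HPB47_005308, r = 0.947) and to PHLDB1 (HPB47_022956, r = 0.945), and an unnamed gene with LDL receptor and immunoglobulin domains (HPB47_013759, r = 0.942). Over the 7 libraries without antigen p23 replicates 1 and 2 these correlations were 0.935, 0.882, 0.853, 0.855 and 0.922 in the same order. The most opposite genes were matches to an eEF1A methyltransferase (HPB47_007509, r = -0.951), to a 22 kDa ubiquitin-conjugating enzyme (HPB47_003312, r = -0.948) and to RagC (HPB47_007762, r = -0.936), a GTPase that activates TOR when amino acids are plentiful. RagC held 194, 156 and 103 CPM in antigen p23 replicates, 139, 93.5 and 123 CPM in metalloprotease replicates and 105, 129 and 87.5 CPM in GFP control replicates. Among all 6923 genes, 37 had r of at least 0.9 and 14 had r of -0.9 or below.

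**Figure D4:**
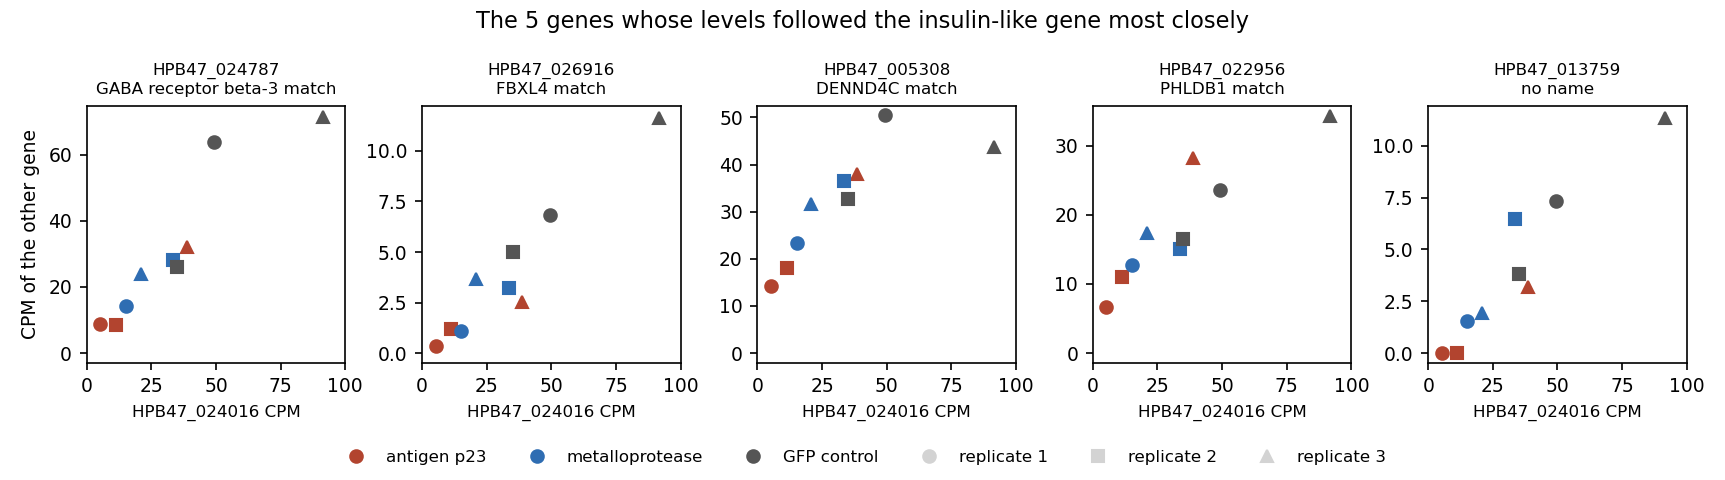
CPM of the 5 genes most like HPB47_024016 (vertical axes) against the CPM of HPB47_024016 (horizontal axes) in the 9 libraries, coloured by group. GFP control replicate 3, at 91.6 CPM, and GFP control replicate 1 lie at the upper right, and antigen p23 replicates 1 and 2 at the lower left.

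The neighbour HPB47_024015, from the same scaffold, followed this pattern only in part. Its GFP control replicates 3 and 1 were highest, but its antigen p23 replicates 1 and 2 were not lowest. It held 742, 612 and 728 CPM in antigen p23 replicates, 397, 750 and 523 CPM in metalloprotease replicates and 785, 516 and 991 CPM in GFP control replicates, and its log2 fold changes were -0.14 (SE 0.30) for antigen p23 and -0.46 (SE 0.35) for metalloprotease against the GFP control. The other neighbour with reads, HPB47_024014, gave -0.39 (SE 0.60) and -0.17 (SE 0.35).

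Markers of other tissues were read beside HPB47_024016, since arthropod insulin-like peptides come largely from nerve cells. Of 9 nervous tissue markers, the RNA-binding ELAV-like protein 1 match made up nearly the whole sum, and without it the other 8 (5 with a read) summed to 0, 0 and 5.39 CPM in antigen p23 replicates, 5.13, 7.06 and 4.54 CPM in metalloprotease replicates and 6.14, 8.28 and 3.46 CPM in GFP control replicates. Of those 8, 6 were at 0 in the antigen p23 group, 4 in the metalloprotease group and 3 in the control. Antigen p23 replicates 1 and 2 held reads for the fewest genes of all libraries (7291 and 6294). The share of all genes at 0 in each group is not given here. Digestive cell markers, cathepsins and legumain, were abundant in all libraries, with sums of 2519 to 4970 CPM in antigen p23, 1581 to 2791 CPM in metalloprotease and 1634 to 2839 CPM in the GFP control over 24 genes, 13 of them with a read. In antigen p23 against the GFP control 7 of the 9 tested were positive, with a median of 0.63 on the log2 scale, against -0.10 over all genes. Before adjustment 2 legumain matches were higher (HPB47_028387, 2.85, SE 1.02, and HPB47_028388, 1.41, SE 0.58), neither after it. Among all genes tested 1.55% were higher before adjustment, and both legumain matches overlapped the control in CPM. Muscle markers (17 genes, 16 with a read) summed to 1917 to 2274, 754 to 2708 and 1272 to 2210 CPM in antigen p23, metalloprotease and GFP control, germ line markers (5 genes, 4 with a read) to 575 to 874, 444 to 790 and 541 to 869 CPM, haemocyte markers (6 genes, 3 with a read) to 5.21 to 62.7, 10.04 to 16.5 and 17.7 to 31.6 CPM, and salivary gland markers (7 genes, 3 with a read) to 67.5 to 354, 24.5 to 328 and 34.7 to 181 CPM. All these sums overlapped between antigen p23 or metalloprotease and the control, except that the haemocyte sums were lower in metalloprotease. The part of other tissues in the level of HPB47_024016 was not tested.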

How the data were processed

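The authors aligned cleaned paired-end reads of poly-A libraries with Bowtie2 2.5.3 to the I. persulcatus genome and made the deposited table with featureCounts, as raw counts for 28510 genes in 9 libraries with Swiss-Prot matches and Pfam domains. How strand and multiply mapped reads were treated is not given in the sources used here, and similar genes may share reads. Totals ran from 3303358 to 9430607 counts.

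Counts were analysed in R 4.3.3 with edgeR 4.0.16 (filterByExpr, TMM, robust quasi-likelihood F test on the 6 libraries of each comparison, group as the only term, Benjamini-Hochberg over all genes tested, threshold 0.05). The code was tested on simulated data. The SE comes from the F statistic. DESeq2 1.42.0, other filters and scalings, the replicate number as a block and leaving out each library were alternatives. P-values set the difference between groups against the spread between pools. No sequence of these genes was used here.

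The gene, lists and tests were chosen with earlier results of these data known. Lists came from Swiss-Prot names and Pfam domains. A list of relaxin-type receptors found 0 genes. The naming rule took HPB47_024016, other insulin-domain genes, receptor and substrate matches, the nearest 2 genes on each side, up to 4 genes per role with the smallest p, and the 5 genes most and 3 least correlated. Not every gene it took is described above. Some described genes, such as HPB47_005193 and HPB47_023645, were added outside the rule.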

Additional observations from a re-analysis of the deposited data

How the results depend on the processing

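HPB47_024016 was chosen by its lower counts in both comparisons with the GFP control, which largely set the sign beforehand. Its log2 fold change stayed negative in both in every alternative run. Against the GFP control it ranged from -2.82 to -1.20 for antigen p23 and from -1.70 to -0.86 for metalloprotease when each library was left out in turn, and for antigen p23 it was -2.82 without antigen p23 replicate 3 and -1.998 with the replicate number as a block. For antigen p23 against metalloprotease the range was -1.48 to 0.097, with the sign turned without antigen p23 replicate 1 (0.097), without metalloprotease replicate 2 (0.024) and, chosen after seeing the data, without antigen p23 replicates 1 and 2 (0.73). Same-numbered libraries deviated from their group means with correlations from -0.47 to 0.10. The labels do not say whether replicate numbers pair the pools, and so few libraries cannot settle it.

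Genes past an adjusted p of 0.05 numbered 5 without the filter and 6 in DESeq2 for antigen p23 against the GFP control, against 0 in edgeR. For antigen p23 against metalloprotease they numbered 16 without the filter, 1 with at least 10 counts in every library, 1 with the replicate block and 21 in DESeq2, against 0. Leaving out each library gave 0 in all 3 comparisons.

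Insulin pathway genes at an unadjusted p of 0.05 or less numbered 2 of 57 tested in antigen p23 against the GFP control. Among all genes 1.55% were higher and 1.71% lower. The count was 1 to 11 when each library was left out. The 11, of 61 tested, came without antigen p23 replicate 3, where 11% of all genes were called. In metalloprotease against the GFP control they numbered 1 of 65, where 0.737% of all genes were higher and 0.693% lower. This compares with 0 with at least 10 counts in every library, 0 with all 9 libraries in 1 fit, 2 without robust dispersions, 2 in DESeq2 and 1 to 3 when each library was left out. In antigen p23 against metalloprotease they numbered 0 of 61, against 3 without the filter, 2 with all 9 libraries in 1 fit, 1 with the replicate block, 2 in DESeq2 and 0 to 8 when each library was left out. The 8, of 63 tested, came without antigen p23 replicate 3, where 8.63% of all genes were called. For the other alternative fits the share over all genes is not given here. The causes were not tested.

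None of the 5 genes most like HPB47_024016 by Pearson correlation was among the 5 highest by Spearman correlation (0 shared). With 3 pools a group and 15 counts in its lowest library, both the spread between pools and depth limit the level of HPB47_024016.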
